A study of Mus musculus with 20 samples.

Results

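The NRF2 antioxidant response was followed through 10 genes in mouse liver RNA: Nfe2l2, Keap1, Gclc, Gclm, Hmox1, Srxn1, Txnrd1, G6pdx, Cat and Sod1. They were chosen by name as the rows of the count table whose Ensembl identifiers carry these symbols in GENCODE release M21, and the rule itself uses no measured value, although earlier results of these data were known when the list was drawn up. All 10 were found among the 21780 genes of the table, and all 10 were among the 15522 genes tested. The livers came from 20 male C57Bl/6J mice, 5 for each of 4 groups. All mice ate a high-fat diet (HFD, 42% of kcal from fat) for 12 weeks from 8 weeks of age, so every group, the control included, carries the diet, and no group ate a control diet. After 2 weeks of diet the mice received a single gavage: corn oil in HFD control, 20 mg/kg of Aroclor 1260 in HFD + Aroclor, 20 µg/kg of PCB 126 in HFD + PCB 126, and both at these doses in HFD + Aroclor + PCB 126, called the combined exposure here. Aroclor 1260 is a commercial mixture of mostly non-dioxin-like polychlorinated biphenyls (PCBs), and PCB 126 is a dioxin-like congener that activates the aryl hydrocarbon receptor (AhR). The methods place the gavage 10 weeks before the livers were taken, whereas the labels give 12 weeks of exposure. The labels do not tie the libraries to cages or litters, and p-values set a difference between groups against the spread between these mice.

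NRF2, the product of Nfe2l2, is a transcription factor that turns on genes against oxidants and electrophiles. In unstressed cells KEAP1 binds NRF2 and passes it to a ubiquitin ligase for degradation. When the cysteines of KEAP1 are modified, NRF2 accumulates, enters the nucleus, pairs with a small MAF protein and binds the antioxidant response element (ARE) near its targets. Since this switch works largely through the stability of the NRF2 protein, the mRNA levels of Nfe2l2 and Keap1 alone do not report its activity, and the target genes are the usual transcript readout. In liver the targets cover glutathione synthesis, the thioredoxin system, NADPH supply, haem breakdown and drug conjugation. AhR, which reads a different element (the xenobiotic response element, XRE), shares some target genes with NRF2, of which Nqo1 is the best known.

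The promoter stretches of 4 members are shown because they hold the letters that NRF2 reads and so tell a reader which members carry an ARE core next to their start. The windows, on GRCm38.p6 and from RefSeq, are written 5′ to 3′ on the strand of the gene, with the match to the ARE core in capitals.
Nfe2l2 (chr2:75704885-75704913, minus strand): tcagcccaccTGACTCCGCcatgccccgg
Gclm (chr3:122245413-122245441, plus strand): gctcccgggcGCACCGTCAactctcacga
Txnrd1 (chr10:82859104-82859132, plus strand): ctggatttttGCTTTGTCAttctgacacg
Sod1 (chr16:90220696-90220724, plus strand): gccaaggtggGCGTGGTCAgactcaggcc
The core searched was TGACNNNGC on either strand, so that GCNNNGTCA is its form on the opposite strand, in the 250 bases before and 50 bases after each RefSeq start. It stood at position -240 from the start in Nfe2l2, -134 in Gclm, -92 in Txnrd1 (at 1 of its 3 starts, inside an intron of the longer transcript) and -56 in Sod1. G6pdx and Srxn1 also held a match, at -57 and at 29 past the start, and their windows are not printed. Of the 8 members with a promoter in the table, 6 held a match, and Keap1 and Cat did not. The share over all 32851 promoters was 12.4%. Here and for the XRE core below, a member is a gene that counts as matched if any of its starts held a match. The shares over all promoters count each promoter on its own. The XRE core GCGTG was found in 32.4% of all promoters and in all members with a promoter except Nfe2l2 and Cat. In Sod1 an XRE match overlaps the ARE match printed above at position -56. A match is a description of letters and not a bound site. Gclc and Hmox1 had no promoter in the RefSeq set used and were not searched. For the other members, sequence beyond 250 bases before or 50 bases after a start was not searched either.

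Per length of merged exons, the 10 genes spanned a wide range of levels. As the median over the 20 libraries, in counts scaled to library size and per kilobase of exon (FPKM, computed from the counts), Cat was highest at 1194, followed by Sod1 at 233, Gclc at 68.3, Gclm at 30.0, Srxn1 at 28.8, Nfe2l2 at 24.1, Txnrd1 at 16.2, Hmox1 at 9.40, Keap1 at 8.30 and G6pdx at 1.67. Cat encodes the peroxisomal catalase that destroys hydrogen peroxide, and its libraries (896 to 1368 FPKM) did not overlap those of Sod1 (175 to 340 FPKM). These values rest on merged exon lengths, 2613 bases for Cat and 3970 for Sod1. The lengths of the transcripts present were not measured, and a shorter Sod1 transcript would raise its FPKM. Gclm, Srxn1 and Nfe2l2 overlapped one another in FPKM over the 20 libraries, and Hmox1 (5.21 to 16.4 FPKM) overlapped both Keap1 (5.09 to 10.8 FPKM) and Txnrd1 (12.1 to 19.5 FPKM), so that the order of these neighbours is not separated beyond the spread. The lowest Gclc library (35.8 FPKM) also lay under the highest Gclm and Srxn1 libraries (37.0 and 43.8 FPKM). G6pdx had the fewest reads, from 92 to 360 counts in a library, against at least 220 for each other member.

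All comparisons below used counts scaled to library size (CPM) after TMM normalization and the quasi-likelihood test of edgeR, fitted over all tested genes and 4 groups, with the adjusted p taken over all tested genes and a threshold of 0.05. Each log2 fold change (log2FC) stands with its standard error (SE). Library depth was 21836506 to 36854887 counts (median 30005986). The number in the label of HFD + PCB 126 replicate 2 differs between its title and its library name, and the title was followed. Cyp1a1, the classical AhR target, averaged 0.612 CPM in HFD control and 0.924 CPM with Aroclor, against 78.6 CPM with PCB 126 (from 4.09 to 314 CPM) and 1.32 CPM with both. It rose with PCB 126 (log2FC 6.93 ± 1.08 SE, adjusted p = 0.0095 by edgeR) but did not pass the test in the combined exposure, whose mice had received the same PCB 126 dose (log2FC 1.06 ± 1.096 SE, edgeR adjusted p = 0.502). Cyp1a2, another AhR target, rose in both (log2FC 2.04 and 1.00), and Cyp2b10, the usual marker of the receptor CAR, reached no call, with a mean of 3.54 CPM in HFD control against 14.0 CPM with Aroclor, 5.38 CPM with PCB 126 and 11.7 CPM with both. Hepatocyte markers took 69078 to 100277 CPM in every library, as a sum over 5 genes. In the combined exposure 3 of these 5 genes fell against HFD control, where 17.0% of all tested genes fell. The median log2FC of the 5 was -0.46, and -0.39 after GC correction with 1 called, beside 4.30% of all tested genes. In the comparison with HFD + PCB 126, 2 fell, beside 11.0% of all tested genes, and none was called after GC correction. The part of the hepatocyte markers in the members' results below was not tested.

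A property of the libraries moved with the groups and has to stand beside every result of the combined exposure. For each library, the slope of the genes' log2 CPM deviations on the GC content of their transcripts was fitted, in log2 units per 10 percentage points of GC. It ran from 0.0853 to 0.423 over the HFD control libraries, from -0.0954 to 0.110 with Aroclor, from -0.0975 to 0.352 with PCB 126 and from -0.543 to -0.121 with both. All 5 slopes of the combined exposure lay under those of the other 15 libraries, and they differed from HFD control by -0.571 (p = 0.00794 in an exact two-sided permutation test, which can give no lower p with 5 against 5). In these libraries GC-rich transcripts were thus read lower and GC-poor transcripts higher, and the members span 45.4% GC (Nfe2l2) to 59.4% GC (Keap1). Results are therefore given as counted and after GC correction, an offset per library fitted as a spline on GC content. Whether the slopes come from the exposure or from the libraries cannot be told apart in this design.

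**Figure D1:**
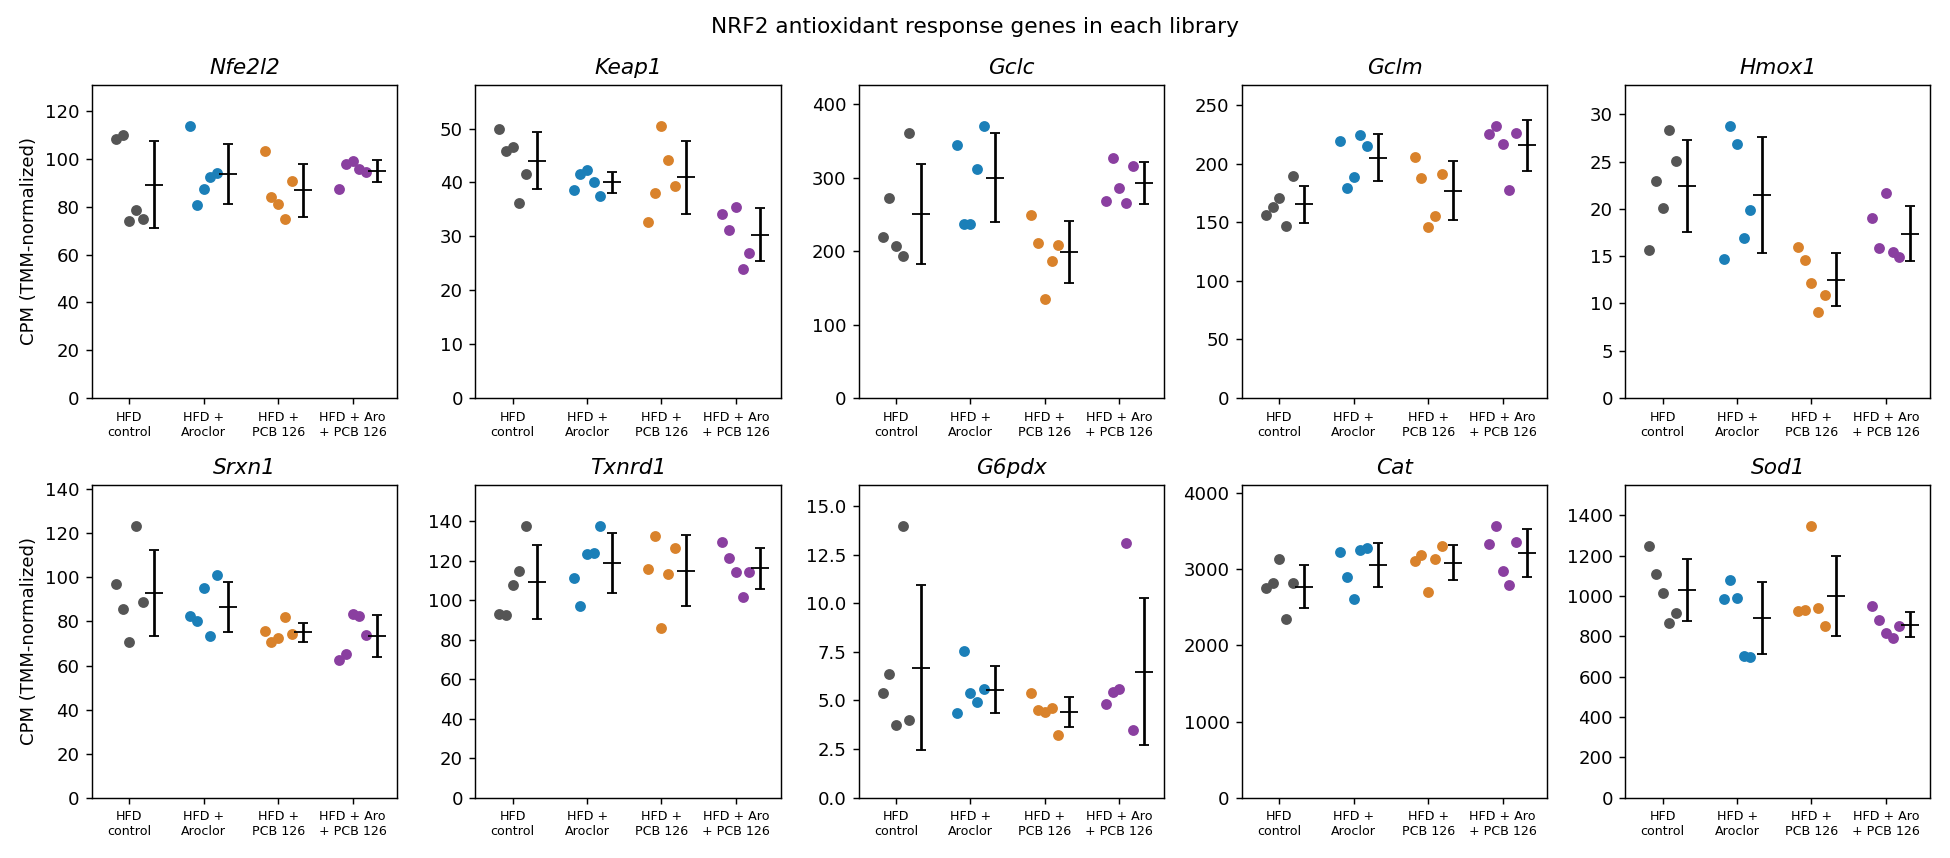
Level of each of the 10 genes in every library, in CPM after TMM normalization, by exposure group; each point is 1 mouse, and the bar beside the points gives the mean and SD over 5 mice. Keap1 lies lowest in HFD + Aroclor + PCB 126, Hmox1 lowest in HFD + PCB 126, and a single library stands far above the others for G6pdx in HFD control and in the combined exposure.

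The sensor pair came first. Nfe2l2, which encodes NRF2 itself (chr2:75675513-75704641, minus strand), was read at 108.6, 110.2, 74.2, 78.9 and 74.99 CPM in HFD control, at 114.0, 80.7, 87.5, 92.4 and 94.1 in HFD + Aroclor, at 103.5, 84.0, 81.2, 74.9 and 90.9 in HFD + PCB 126 and at 87.6, 98.2, 99.4, 95.9 and 94.7 in the combined exposure. The 4 groups overlapped throughout, and the combined exposure was the tightest of them. The log2FC against HFD control was 0.07 ± 0.12 SE with Aroclor, -0.04 ± 0.12 SE with PCB 126 and 0.09 ± 0.12 SE with both, with edgeR adjusted p of 0.784, 0.912 and 0.629. As counted, the 95% interval of the combined exposure was -0.17 to 0.35, and changes within it could have been missed with 5 mice a group. It holds for that fit only. After GC correction the value of the combined exposure was -0.20 ± 0.13 SE (edgeR adjusted p = 0.407), on the other side of 0 and outside that interval.

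Keap1 encodes the sensor that holds NRF2 down (chr9:21229730-21239361, minus strand). Its level was 50.0, 45.8, 46.6, 36.2 and 41.6 CPM in HFD control, 38.6, 41.6, 42.3, 40.0 and 37.5 in HFD + Aroclor, 32.7, 38.1, 50.5, 44.1 and 39.3 in HFD + PCB 126 and 34.2, 31.3, 35.4, 23.9 and 26.9 in the combined exposure. Every library of the combined exposure lay under every HFD control library and every HFD + Aroclor library, while PCB 126 replicate 1 fell inside its range. Of all tested genes, 18.8% and 6.76% had no overlap in the first 2 of these comparisons. As counted, Keap1 fell with the combined exposure against HFD control (log2FC -0.54 ± 0.12 SE, edgeR adjusted p = 0.00296) and against HFD + PCB 126 (log2FC -0.43 ± 0.12 SE, edgeR adjusted p = 0.0250). After GC correction these differences were 0.02 ± 0.09 SE and -0.03 ± 0.09 SE, and neither passed the test (edgeR adjusted p of 0.936 and 0.879). Keap1 is the member richest in GC, and within HFD control its highest library was also the library with the highest GC slope. The call against HFD control remained in all 20 fits that left out a mouse, whereas the call against HFD + PCB 126 was lost without HFD + PCB 126 replicate 3 or 4 or without combined-exposure replicate 4 or 5 (log2FC -0.35, -0.40, -0.36 and -0.39). With either single exposure Keap1 was not called, at log2FC -0.14 ± 0.12 SE (Aroclor) and -0.11 ± 0.12 SE (PCB 126).

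Glutathione synthesis is the next branch, and its rate-limiting enzyme, glutamate-cysteine ligase, has a catalytic subunit (Gclc) and a modifier subunit (Gclm). Gclm (chr3:122245557-122270732, plus strand) was read at 156.7, 163.5, 170.5, 146.5 and 189.4 CPM in HFD control, at 219.7, 179.1, 188.5, 224.9 and 215.0 in HFD + Aroclor, at 206.1, 187.6, 146.0, 155.4 and 191.2 in HFD + PCB 126 and at 225.4, 232.6, 216.7, 177.7 and 226.7 in the combined exposure. All combined-exposure libraries but replicate 4 lay above all HFD control libraries. As counted, Gclm rose with the combined exposure (log2FC 0.38 ± 0.11 SE, a fold of 1.31, edgeR adjusted p = 0.0102). After GC correction the difference was 0.12 ± 0.12 SE (edgeR adjusted p = 0.620). The Aroclor value as counted was close to the combined one, at log2FC 0.31 ± 0.11 SE, and did not pass the test (edgeR adjusted p = 0.203). After GC correction the Aroclor value was 0.21 ± 0.12 SE (edgeR adjusted p = 0.499). PCB 126 gave 0.10 ± 0.11 SE as counted (edgeR adjusted p = 0.708).

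Gclc (chr9:77754535-77794485, plus strand) was more variable among mice. It was read at 219.4, 273.0, 206.8, 193.6 and 360.9 CPM in HFD control, at 344.0, 237.2, 237.2, 312.1 and 370.7 in HFD + Aroclor, at 249.7, 211.3, 134.7, 186.4 and 208.9 in HFD + PCB 126 and at 267.6, 327.4, 285.9, 265.0 and 316.5 in the combined exposure. Every combined-exposure library lay above every HFD + PCB 126 library, while HFD control overlapped with all groups. Gclc was thus higher in the combined exposure than in HFD + PCB 126 as counted (log2FC 0.56 ± 0.18 SE, a fold of 1.48, edgeR adjusted p = 0.0366), and 0.43 ± 0.18 SE after GC correction, which did not pass the test (edgeR adjusted p = 0.199). The call was made in 13 of the 20 fits that left out a mouse, and was lost without HFD + PCB 126 replicate 3, 4 or 5 (log2FC 0.45, 0.54 and 0.58), combined-exposure replicate 2, 4 or 5 (0.52, 0.59 and 0.53) or HFD + Aroclor replicate 4 (0.54). Against HFD control no exposure was called, with log2FC 0.26 ± 0.18 SE (Aroclor), -0.34 ± 0.18 SE (PCB 126) and 0.22 ± 0.18 SE (combined).

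Hmox1, which encodes the inducible haem oxygenase and is expressed strongly in macrophages that clear red cells as well as in stressed hepatocytes, was the member with the largest difference for a single exposure (chr8:75093621-75100589, plus strand). It was read at 15.7, 22.9, 20.1, 28.3 and 25.1 CPM in HFD control, at 14.7, 28.8, 26.9, 17.0 and 19.9 in HFD + Aroclor, at 15.95, 14.6, 12.2, 9.1 and 10.9 in HFD + PCB 126 and at 19.01, 15.8, 21.7, 15.5 and 14.9 in the combined exposure. All PCB 126 libraries but replicate 1 lay under every HFD control library, and replicate 1 lay just above the lowest of them. The log2FC of PCB 126 against HFD control was -0.84 ± 0.19 SE, a fold of 0.56 (95% interval of the log2FC -1.248 to -0.422), with an unadjusted p of 0.000341 and an edgeR adjusted p = 0.0653, just past the threshold. GC correction gave -0.75 ± 0.19 SE (edgeR adjusted p = 0.0838). DESeq2 called it (log2FC -0.85, adjusted p = 0.00541), as did edgeR with the slope entered as a covariate (log2FC -0.87, adjusted p = 0.0197) and edgeR without HFD control replicate 1 (log2FC -0.94, adjusted p = 0.0479). These were 2 of 11 alternative fits and 1 of the 20 that left out a mouse. The other 9 alternatives did not call it, with the highest adjusted p, 0.256, when edgeR was fitted on only the groups compared. The combined exposure, which had the same PCB 126 dose, gave -0.36 ± 0.19 SE against HFD control (edgeR adjusted p = 0.158), and it differed from PCB 126 by 0.47 ± 0.19 SE (edgeR adjusted p = 0.0924).

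Liver RNA holds several cell types, and fewer cells of a type and less RNA per cell cannot be told apart in bulk tissue. Of 9 Kupffer cell and macrophage markers (Clec4f, Vsig4, Adgre1, Cd5l, Marco, Cd68, Gpnmb, Trem2 and Ccr2), none was called with PCB 126, 2 had a positive log2FC and the median log2FC was -0.15, with no marker at 0 in any library. Their summed level was 122 to 335 CPM (median 260) in HFD + PCB 126 and 185 to 418 CPM (median 260) in HFD control. The part of these cells in the Hmox1 difference was not tested. In the combined exposure 2 of the 9 markers rose as counted, where 15.8% of all tested genes rose, and none was called after GC correction. Their summed level there was 241 to 335 CPM (median 267). The 3 erythroid markers had a median log2FC of -0.31 with PCB 126, and none was called.

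Srxn1 and Txnrd1 stand for the thioredoxin branch. Srxn1 (chr2:152105516-152111376, plus strand) encodes sulfiredoxin, which repairs over-oxidized peroxiredoxins. It was read at 96.8, 85.8, 70.5, 123.5 and 88.9 CPM in HFD control, at 82.5, 80.4, 95.2, 73.4 and 101.2 in HFD + Aroclor, at 75.5, 70.5, 72.4, 82.1 and 74.4 in HFD + PCB 126 and at 62.7, 65.4, 83.4, 82.6 and 73.7 in the combined exposure. The groups overlapped, and HFD control replicate 4 was the highest of all 20 libraries. As counted, Srxn1 fell with the combined exposure (log2FC -0.34 ± 0.13 SE, edgeR adjusted p = 0.0447), and after GC correction the difference was 0.02 ± 0.12 SE (edgeR adjusted p = 0.957). Of 11 alternative fits 4 called it, and of the 20 fits that left out a mouse 7 did, and without HFD control replicate 4 the log2FC was -0.22 (edgeR adjusted p = 0.144), the end of a range from -0.41. As counted, PCB 126 gave a log2FC of similar size, -0.31 ± 0.13 SE (edgeR adjusted p = 0.270), and Aroclor -0.11 ± 0.13 SE. After GC correction PCB 126 gave -0.18 ± 0.12 SE (edgeR adjusted p = 0.517) and Aroclor 0.04 ± 0.12 SE.

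Txnrd1 encodes cytosolic thioredoxin reductase (chr10:82833951-82897712, plus strand). It ranged from 92.7 to 137.9 CPM in HFD control (median 107.9), 97.1 to 137.8 in HFD + Aroclor (median 123.3), 86.0 to 132.7 in HFD + PCB 126 (median 115.8) and 101.4 to 129.4 in the combined exposure (median 114.4). The 3 log2FC values against HFD control were 0.12, 0.07 and 0.09, each ± 0.13 SE, and none passed the test. Its annotated span overlaps Eid3 on the same strand, so its counts are uncertain to that extent.

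G6pdx encodes glucose-6-phosphate dehydrogenase, the entry enzyme of the pentose phosphate pathway and a source of NADPH (chrX:74409483-74429194, minus strand). It was read at 5.38, 6.36, 3.74, 13.99 and 4.00 CPM in HFD control, at 4.36, 7.53, 5.37, 4.92 and 5.57 in HFD + Aroclor, at 5.37, 4.51, 4.40, 4.61 and 3.24 in HFD + PCB 126 and at 4.80, 5.45, 5.598, 13.09 and 3.46 in the combined exposure. Replicate 4 of HFD control and replicate 4 of the combined exposure were each more than any other library by a wide margin, and they set the SD of their groups (4.22 and 3.79 CPM against 1.20 and 0.765 in the other groups). None of the 3 differences passed the test, at log2FC -0.27 ± 0.33 SE (Aroclor), -0.59 ± 0.34 SE (PCB 126) and -0.04 ± 0.34 SE (combined). The sign of the combined value is not set: it was 0.41 without HFD control replicate 4, between 0.008 and 0.12 without combined-exposure replicate 1, 2, 3 or 5, and 0.05 after GC correction. Ikbkg overlaps G6pdx on the opposite strand, so G6pdx counts are uncertain if reads were counted without regard to strand.

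Cat and Sod1 are the abundant enzymes of the list and are only partly NRF2-dependent. Cat (chr2:103453849-103485160, minus strand) ranged from 2342 to 3134 CPM in HFD control (median 2816), 2613 to 3277 in HFD + Aroclor (median 3228), 2698 to 3306 in HFD + PCB 126 (median 3141) and 2797 to 3574 in the combined exposure (median 3337). The log2FC values were 0.14, 0.16 and 0.21, each ± 0.10 SE, with edgeR adjusted p of 0.453, 0.479 and 0.109. The 95% interval of the combined exposure, 0.00 to 0.42, is narrow beside that of G6pdx (-0.75 to 0.67). Sod1 encodes the cytosolic copper and zinc superoxide dismutase (chr16:90220754-90226329, plus strand). It ranged from 868 to 1249 CPM in HFD control (median 1016), 697 to 1079 in HFD + Aroclor (median 984), 852 to 1349 in HFD + PCB 126 (median 929) and 789 to 951 in the combined exposure (median 853), with overlap among all groups. Its log2FC was -0.21, -0.05 and -0.26, each ± 0.14 SE, and none was called. The GC-corrected value of the combined exposure, -0.40 ± 0.17 SE (edgeR adjusted p = 0.162), was further from 0. Scaf4 overlaps Sod1 on the opposite strand.

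**Figure D2:**
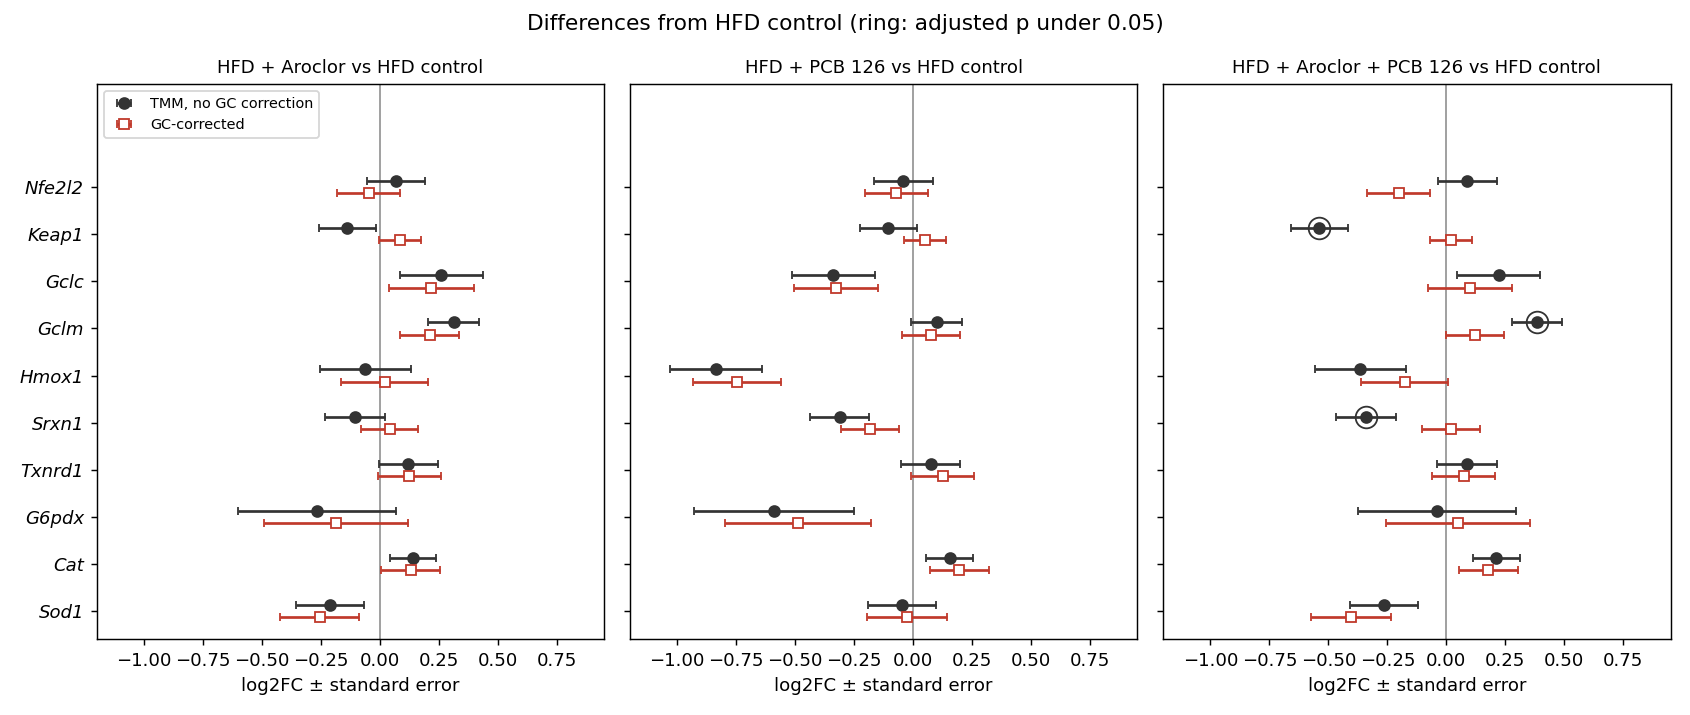
log2FC of the 10 genes against HFD control with its standard error (horizontal bars), for Aroclor, PCB 126 and both, from edgeR fits on 5 mice a group; filled circles are the values as counted, open squares the values after GC correction, and rings mark an adjusted p under 0.05. Rings stand only on Keap1, Gclm and Srxn1 in the combined exposure, where the GC-corrected squares lie between 0.02 and 0.12.

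Counted over the members, 0 of 10 were called with Aroclor (background over all tested genes 0%), and 0 of 10 with PCB 126 (background 0.116%). At an unadjusted p under 0.05, Aroclor had 1 member (Gclm), beside 2677 of all 15522 tested genes. PCB 126 had 2 (Hmox1 and Srxn1), beside 2280 of all tested genes. DESeq2 called 0 members with Aroclor and 1 with PCB 126 (Hmox1), beside 135 and 320 of all tested genes. With the combined exposure 3 of 10 were called, against 32.8% of all tested genes. Gclm rose, where 15.8% of all tested genes rose, and Keap1 and Srxn1 fell, where 17.0% did. The members' share was near the background, and their median log2FC was 0.02 beside -0.00 over all tested genes. After GC correction 0 of 10 members and 4.30% of the tested genes were called, and 7 of the 10 log2FC values lay closer to 0. An unadjusted p under 0.05 was then left for 1 member, beside 3429 of all tested genes. Between the combined exposure and PCB 126, Keap1 and Gclc were called, beside 16.7% of all tested genes (5.64% higher, 11.0% lower), and neither after GC correction. That correction moved the median of all genes in this comparison from 0.07 to -0.04. Between the combined exposure and Aroclor no member was called by edgeR (background 0.412%). In that comparison 1 member had an unadjusted p under 0.05, beside 3639 of all tested genes. DESeq2 called Keap1 (adjusted p = 0.0286), beside 1343 of all tested genes. No member passed the test of the interaction of Aroclor and PCB 126 (background 0%). At an unadjusted p under 0.05 the interaction had 0 members, beside 1846 of all tested genes. DESeq2 called no member there either. The comparisons against HFD control share the same 5 control libraries, so their values are not independent. As counted, complete separation of 5 libraries from 5 was seen for 1 member in the combined exposure against HFD control (Keap1) for 1 against PCB 126 (Gclc) and for 1 against Aroclor (Keap1), where 18.8%, 9.90% and 6.76% of all tested genes separated, and for no member between PCB 126 and HFD control (2.14% of all tested genes).

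**Figure D3:**
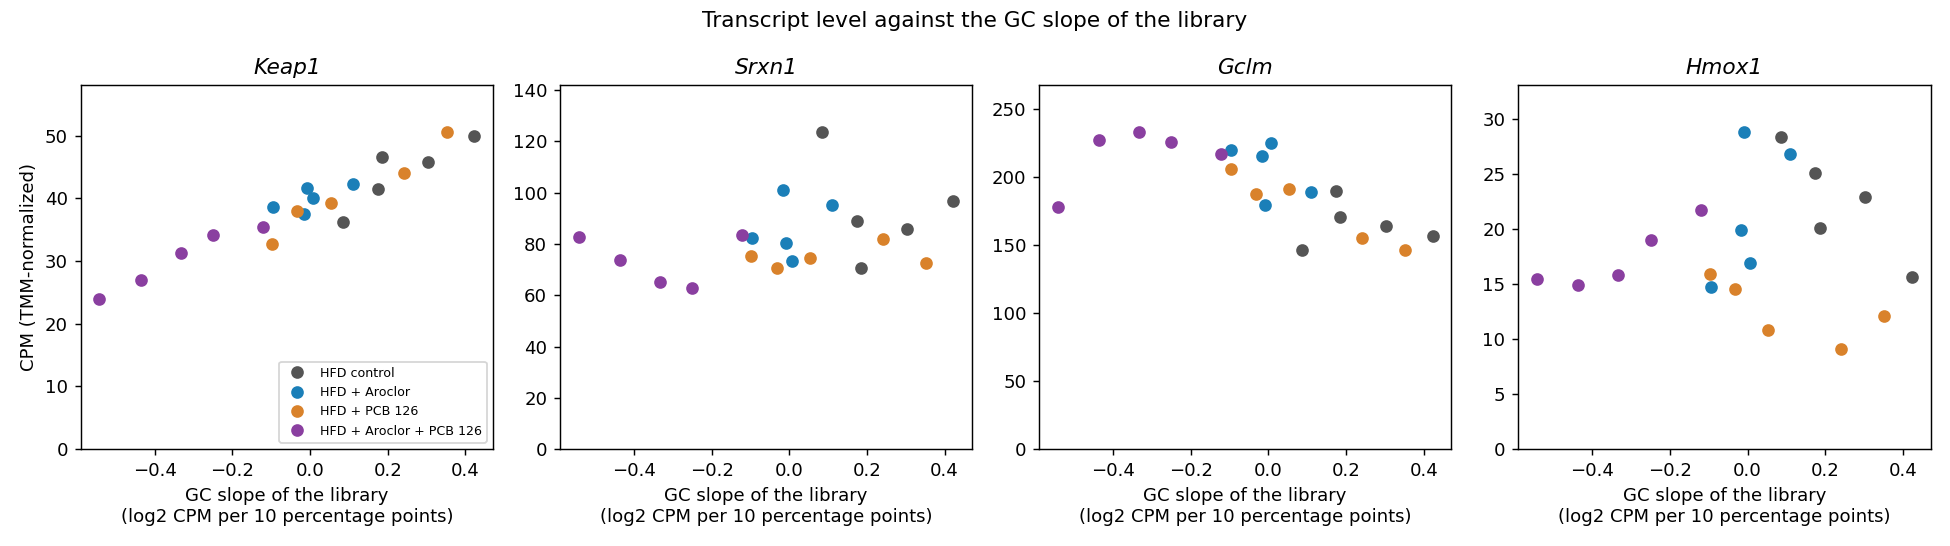
Level of Keap1, Srxn1, Gclm and Hmox1 in CPM after TMM normalization against the GC slope of the library (log2 CPM per 10 percentage points of GC), 1 point per library, coloured by group. The combined-exposure libraries lie at the left in all panels, Keap1 runs from 23.9 CPM at the lowest slope to 50.0 CPM at the highest, and for Hmox1 the PCB 126 libraries lie between 9.13 and 15.95 CPM, the highest of them at the lowest slope and beside an HFD + Aroclor library of 14.7 CPM.

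The rest of the pathway was read from 62 further genes in 9 groups. None of the 62 was called with Aroclor or with PCB 126. Before adjustment, 7 of them with Aroclor and 5 with PCB 126 were under 0.05 in the edgeR test. Of all 15522 tested genes, 2677 and 2280 were, a larger share in each comparison. DESeq2 called 0 and 2 of the 62, beside 135 and 320 of all tested genes. Nqo1, the quinone reductase that NRF2 and AhR both induce, averaged 11.4 CPM in HFD control against 14.1 CPM with Aroclor, 12.8 CPM with PCB 126 and 15.2 CPM with both, with log2FC of 0.30 ± 0.24, 0.17 ± 0.24 and 0.41 ± 0.24 SE, none of them called. The median log2FC of the 62 genes was 0.05 with Aroclor and -0.08 with PCB 126, beside -0.01 and -0.02 over all tested genes. Pathway genes named here, other than Btrc, were chosen after their values were seen.

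With the combined exposure, 28 of the 62 were called as counted, 10 higher and 18 lower. That is 45.2% of the list against 32.8% of all tested genes, with 16.1% higher against 15.8% and 29% lower against 17.0%. After GC correction the share was 1.61% against 4.30% of all tested genes. Of the regulators of NRF2, 2 of 10 rose and 4 fell: Cul3, the scaffold of the ligase that KEAP1 serves, rose (log2FC 0.50 ± 0.11 SE), and Sqstm1 (p62, which competes for KEAP1) and Mafg (a small MAF partner) fell (log2FC -0.57 ± 0.11 and -0.58 ± 0.16 SE). Of 5 NADPH suppliers, Idh1 rose (log2FC 0.46 ± 0.10 SE), and Pgd, Taldo1 and Tkt, all of the pentose phosphate pathway, fell (log2FC -0.44 ± 0.13, -0.73 ± 0.17 and -0.70 ± 0.17 SE). Of 7 genes of glutathione synthesis and reduction, Glrx rose and Gss fell (log2FC 0.35 ± 0.09 and -0.33 ± 0.11 SE). Of 5 haem and iron genes, 1 rose and 2 fell, the latter including the ferritin light chain Ftl1 (log2FC -0.89 ± 0.22 SE). Among 8 other superoxide and peroxide enzymes 1 rose and 4 fell, among 5 thioredoxin and peroxiredoxin genes 2 fell, and among 17 conjugating enzymes and reductases 2 rose and 2 fell, Gstp1 among the latter (log2FC -0.98 ± 0.30 SE). Of 3 transporters Abcc2, the canalicular exporter of conjugates, rose (log2FC 0.56 ± 0.15 SE), and of the 2 other targets Ces1g rose (log2FC 0.98 ± 0.29 SE). The other, Osgin1, went the opposite way without a call (log2FC -1.15, and -0.68 after GC correction). With Aroclor it had the lowest log2FC of the 62 genes, again without a call (-1.25, and -1.06 after GC correction).

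The pathway genes that rose had a GC content of 39.0% to 47.8%, and those that fell had 46.3% to 57.7%. After GC correction 27 of the 28 lay closer to 0, 26 kept their sign and 1 was called. That gene is Btrc, which encodes the F-box protein β-TrCP of a second ubiquitin ligase for NRF2. It was lower both as counted (log2FC -0.30 ± 0.09 SE, edgeR adjusted p = 0.0158) and after GC correction (log2FC -0.53, edgeR adjusted p = 0.0186). Btrc was called in 9 of 10 alternative fits, the exception being the GC slope as a covariate (adjusted p = 0.859), and in 19 of the 20 that left out a mouse, not without combined-exposure replicate 4 (log2FC -0.25). The median over the 62 genes was -0.13 as counted and -0.08 after GC correction, beside -0.00 and -0.03 over all tested genes.

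**Figure D4:**
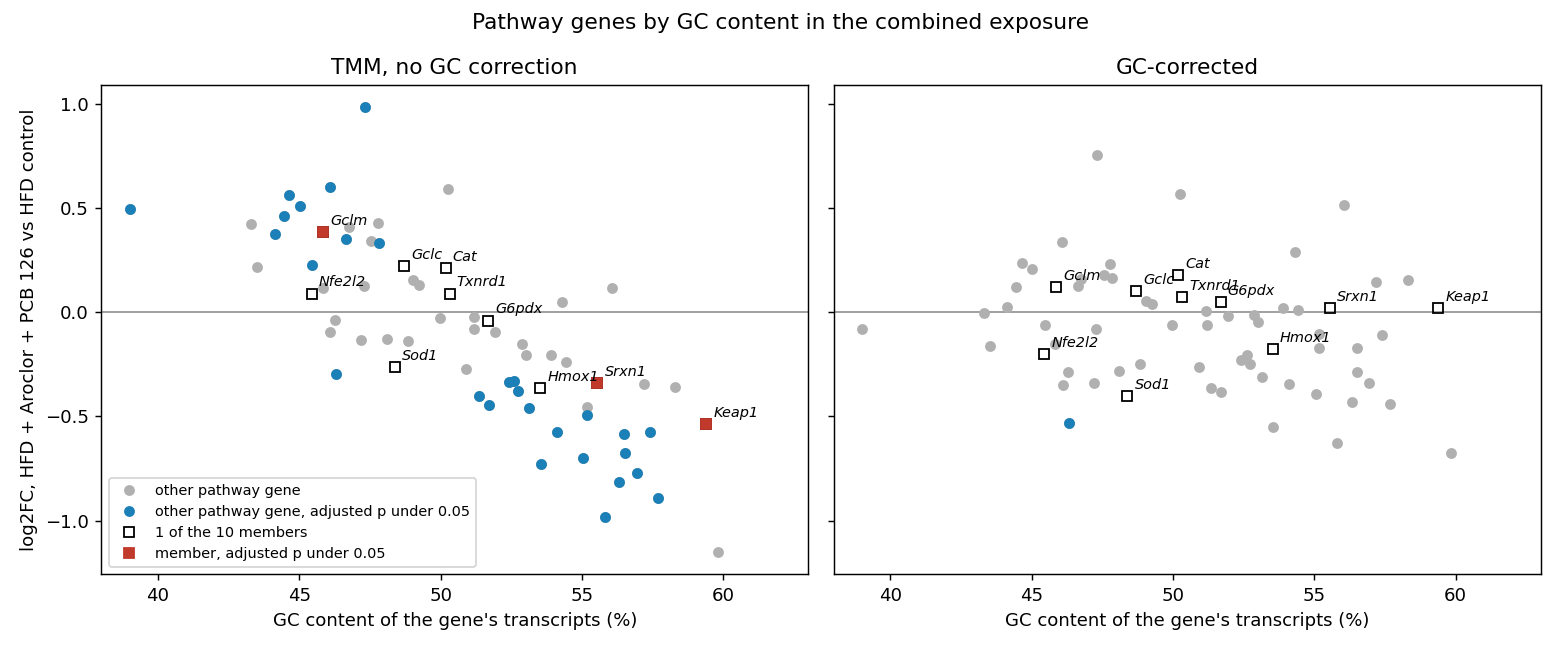
log2FC of the combined exposure against HFD control (vertical axis) against transcript GC content in percent (horizontal axis) for the 10 members (squares, named) and 58 of the 62 other pathway genes (circles); 4 genes with an SE over 0.6 are not drawn, and filled colour marks an adjusted p under 0.05. As counted (left) the values descend from GC-poor to GC-rich genes, and after GC correction (right) the GC-rich members Keap1 and Srxn1 lie at 0.02 and Btrc is the only coloured point.

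For each member the 2 most similar genes were sought among 11342 genes with a mean of at least 1 CPM, by Pearson's r of log2 CPM over the 20 libraries. These correlations describe points that share group, library and GC slope. Keap1 ran most closely with Ndufa13 and Klhdc4 (r = 0.98 for both), whose transcripts hold 60.4% and 56.1% GC, and after GC correction r was 0.72 and 0.65. Hmox1 ran with Ccl2, a chemokine that draws monocytes, and Entpd1, an ectonucleotidase (r = 0.90 and 0.84, and 0.81 and 0.87 after GC correction). Gclm ran with Topbp1 and Prr16 (r = 0.94 and 0.93), Gclc with Sgpl1 and Sh3bgrl2 (0.90 and 0.88), and Nfe2l2 with Rad50 and Parp2 (0.81 for both). Srxn1 ran with Mtmr11 and Ccdc149 (0.87 and 0.83), Txnrd1 with Ubqln1 and Kansl1 (0.92 and 0.90), G6pdx with Ampd3 and Rgs2 (0.94 and 0.93), Cat with Abcb10 and Mtmr10 (0.91 and 0.89) and Sod1 with Minos1 and Swi5 (0.94 for both). No member was among the 2 genes most similar to another member.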

How the data were processed

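Liver RNA-seq of 20 mice was analysed. The deposited values are raw counts of reads per Ensembl gene, before any normalization. The authors made stranded poly(A) libraries, sequenced in 2 runs, checked the reads with FastQC 0.10.1, used STAR 2.6 for alignment to GRCm38.p6 and HTSeq 0.10.0 for counting. The annotation release and strand setting of the counting are not given in the sources used here. Amplification of libraries can favour transcripts by GC content.

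The counts were filtered to genes with a total of at least 10, normalized with TMM and tested with the two-sided quasi-likelihood test of edgeR 4.0.16 (R 4.3.3), with a coefficient per group (16 residual degrees of freedom) and Benjamini-Hochberg adjustment over all tested genes. CPM and FPKM were computed from the counts, the latter with merged exon lengths. Gene spans and GC content are from GENCODE M21 on GRCm38, and promoters from RefSeq. GC correction used a spline with 6 degrees of freedom per library. Alternatives were RLE or upper-quartile scaling, DESeq2 1.42.0, other filters (none, filterByExpr, and at least 1 FPKM in 3 libraries), only the groups compared, a replicate block, GC correction, the GC slope as a covariate and each mouse left out. The fits were tested on simulated data. No library repeated another: among 40 within-group pairs the chi-square statistic was at least 16.2 times its degrees of freedom. Each member had at least 92 counts in every library.

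The members and lists were chosen with earlier results of these data known. Named were all members, Cyp1a1, Cyp1a2, Cyp2b10 and Cyp3a11, pathway genes called with a single exposure (none) or with both before and after GC correction, and the 2 genes most similar to each member. The other pathway genes named in the text fall outside this rule and were chosen after their values were seen. Cyp3a11 rose with the combined exposure (log2FC 0.89), and 0.36 after GC correction, which was not called. Of 62 pathway genes, all were tested. Markers of 7 cell types were read. Those of endothelial cells, cholangiocytes, lymphocytes and stellate cells had median log2FC of -0.21, -0.19, -0.13 and -0.30 with PCB 126 and -0.02, -0.48, 0.15 and 0.31 with both, and hepatocyte markers -0.14 and -0.46. Erythroid markers had a median of -0.45 with both. Called with both, as counted, were 1 of 5 endothelial (lower), 1 of 3 lymphocyte (higher), 3 of 5 stellate (2 higher, 1 lower) and 3 of 5 hepatocyte (lower) markers. Of all tested genes 32.8% were called in that comparison, 15.8% higher and 17.0% lower. After GC correction 1 hepatocyte marker was called, and none of the endothelial, lymphocyte or stellate markers, beside 4.30% of all tested genes.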

Additional observations from a re-analysis of the deposited data

Results flagged for a closer look

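In groups of 5 mice, the highest or lowest library was set against the rest of its group. Of 108 groups, 10 had a library far from the others, and chance alone gives about 1 in 20. Among the members, Gclm had a low library in the combined exposure (replicate 4, 177.7 CPM, next 216.7), G6pdx had a high library in HFD control (replicate 4, 13.99 CPM, next 6.36) and in the combined exposure (replicate 4, 13.09 CPM, next 5.598), and Sod1 had a high library in HFD + PCB 126 (replicate 3, 1349 CPM, next 938). Combined-exposure replicate 4, which is low for Gclm and high for G6pdx, is also the library with the lowest GC slope, -0.543.

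In the wider pathway, Nqo1 was high in HFD + PCB 126 replicate 1 (20.54 CPM) and Osgin1, an oxidant-induced gene, in combined-exposure replicate 3 (59.16 CPM). Cul3 was low in HFD + Aroclor replicate 3 (78.03 CPM) and Sqstm1 in HFD + PCB 126 replicate 1 (294.7 CPM). Cyp1a1 was high in HFD + PCB 126 replicate 4 (314.3 CPM, next 62.1, lowest 4.09) and in combined-exposure replicate 5 (2.623 CPM, next 1.19).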

How the results depend on the processing

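Scaling by RLE or upper quartile and the filters on low counts kept the direction of every member named, but the Srxn1 call in the combined exposure was lost under upper-quartile scaling (adjusted p = 0.0505), no filter (0.0572), the FPKM filter (0.0542) and only the groups compared (0.0905). Members called in the combined exposure against HFD control went from 3 to 0, and against PCB 126 from 2 to 0, under GC correction, GC correction with the block and the GC slope covariate; pathway genes went from 28 to 1, 3 and 0, and from 9 to 0, 0 and 0. Under GC correction the log2FC reversed for Nfe2l2 (Aroclor -0.048, combined -0.20), Keap1 (Aroclor 0.085, PCB 126 0.050, combined 0.019), Hmox1 (Aroclor 0.021), Srxn1 (Aroclor 0.041, combined 0.019), G6pdx (combined 0.050) and Cul3 (combined -0.078). With the block added these were -0.030 and -0.18 (Nfe2l2), 0.088, 0.056 and 0.021 (Keap1), 0.055 and 0.024 (Srxn1), 0.049 (G6pdx) and -0.081 (Cul3), the signs again reversed. Under the GC slope covariate, Keap1 reversed with Aroclor (0.16), PCB 126 (0.048), both (0.16) and both against PCB 126 (0.11), Sod1 with PCB 126 (0.063), and in the combined exposure Gclc (-0.28), Txnrd1 (-0.19), Sod1 (0.23), Osgin1 (0.52), Ftl1 (0.18), Gpx1 (0.31), Taldo1 (0.11), Tkt (0.029), Cul3 (-0.15) and Mafg (0.24). The slopes of the combined exposure do not overlap those of HFD control.

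With PCB 126 against HFD control, members called went from 0 to 1 under DESeq2 and under the GC slope covariate (Hmox1), and pathway genes from 0 to 2 (DESeq2), 1 (replicate block), 1 (both corrections) and 1 (covariate). Against PCB 126, the combined exposure had 16 (DESeq2), 4 (only the groups compared) and 15 (replicate block) pathway genes in place of 9. Against Aroclor it had 1 member (DESeq2) in place of 0, and pathway genes went from 0 to 1 (upper quartile), 10 (DESeq2), 1 (filterByExpr), 3 (FPKM filter) and 6 (replicate block).

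Over the whole table, Aroclor calls were 0, and 135 (DESeq2), 26 (replicate block), 25 (both corrections) and 447 (covariate). PCB 126 calls were 18, and 9 (upper quartile), 320 (DESeq2), 68 (filterByExpr), 47 (FPKM filter), 4 (only the groups compared), 101 (replicate block), 47 (GC correction), 145 (both corrections) and 676 (covariate). Combined calls were 5089, and 668, 933 and 335 under the GC corrections alone, with the block and as covariate, and against PCB 126 2589, and 0, 153 and 0. Against Aroclor they were 64, and 107 (RLE), 251 (upper quartile), 1343 (DESeq2), 13 (no filter), 292 (filterByExpr), 636 (FPKM filter), 0 (only the groups compared), 475 (replicate block), 3 (GC correction), 40 (both corrections) and 0 (covariate). The interaction had 0, and 1 (DESeq2), 38 (replicate block) and 44 (both corrections). The cause was not tested.

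The replicate number as a block left the members called at 3 and 2, although several whole-table counts moved with it, as given above. A number names a different animal in each group. Over 30 same-numbered pairs of libraries the median correlation of deviations was 0.05 (-0.26 to 0.74, 13 of them over 0.1). Over 120 other pairs it was -0.01 (-0.53 to 0.46). Between HFD control and the combined exposure the 5 same-numbered pairs had 0.25, 0.047, 0.15, 0.74 and 0.37, so that 4 of 5 exceeded 0.1. The 0.74 belongs to replicate 4, the high library for G6pdx in both groups. Whether same-numbered libraries share a batch or handling was not tested.

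Leaving out each mouse, members called ranged from 0 to 1 (PCB 126), 2 to 4 (combined), 0 to 3 (combined against PCB 126) and 0 to 1 (combined against Aroclor), and stayed 0 with Aroclor and in the interaction. Against PCB 126 the count was 0 without HFD + PCB 126 replicate 3 or 4 or combined-exposure replicate 4 or 5. Pathway genes ranged from 0 to 1, 21 to 30, 0 to 16 and 0 to 8 in the same order, and whole-table calls from 4 to 131, 3887 to 5665, 245 to 3403 and 0 to 1011. The GC slope difference ranged from -0.62 to -0.52. The log2FC changed sign within its range for Nfe2l2 (Aroclor -0.012 to 0.15, PCB 126 -0.11 to 0.039), Hmox1 (Aroclor -0.22 to 0.046), Srxn1 (Aroclor -0.20 to 0.017), G6pdx (Aroclor -0.42 to 0.18, combined -0.47 to 0.41), Sod1 (PCB 126 -0.18 to 0.032) and Nqo1 (PCB 126 -0.072 to 0.43). Depth was lowest for G6pdx, with 92 counts in 1 library.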
